A study of Rattus norvegicus with 18 samples.

Results

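Hippo pathway and YAP target genes were followed in rat H9c2 cells treated with bufalin or with periplocin. The set holds 10 genes, which were matched by gene name to the expression tables and the peak lists, where 8 were found among the 17455 genes listed: Amotl2, Lats1, Lats2, Yap1, Wwtr1, Tead1, Ccn1 and Ankrd1. Amotl1 and Amot were not analysed here. The 10 genes were chosen by a rule that names them, drawn up with the RNA changes of both compounds and the difference between the compounds known, and which of these values drew each gene into the set is not recorded. Every RNA value of the set is therefore a description of these samples, and the counts given for it support nothing by themselves.

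H9c2 is a wild-type myoblast line of rat heart muscle. The 18 samples formed 6 groups of 3: bufalin-treated, periplocin-treated and control cells, each read as an immunoprecipitated (IP) and an input library by methylated RNA immunoprecipitation sequencing, which uses an antibody to pull down RNA fragments that carry m6A (N6-methyladenosine), a common modification of mRNA. The study asked whether this mark takes part in the cardiotoxicity of the compounds. Both are cardiotonic steroids, known as inhibitors of Na+/K+-ATPase. Periplocin is a glycoside of the cardenolide type, whereas bufalin is a bufadienolide and carries no sugar. Doses, exposure times and whether replicates were separate cultures are not in the labels, so p-values measure only the spread between these samples, which may be technical, and differences between the compounds are not known to be at matched doses or times. All groups share 1 cell line, and no group carries a genetic change.

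The files hold comparisons of each compound with control made by the authors, 1 figure for each gene or peak and none for a single library, so the level in each library and the library depths are not analysed here. RNA levels below are mean normalized counts per group, worked out from the mean and the fold change in the authors' deposited tables. They are not divided by transcript length and are not compared between genes. Whether input or IP libraries entered the RNA tables is not stated. The 2 tables set the same control cells on slightly different scales, 0.05 apart on the log2 scale. Of the markers checked, 5 of 10 myoblast and skeletal muscle genes and 6 of 11 cardiomyocyte genes had a mean of at least 10 in both tables. The muscle regulator Myod1 and the muscle adhesion gene Cdh15 were present, with means of 716 and 2259 in the authors' deposited table for bufalin, whereas Pax7, Myf5, Actc1, Nppb and Myl7 were listed at 0. Of the endothelial and epithelial markers, 1 of 5 and 1 of 4 reached a mean of 10 in both tables, and Kdr, Emcn and Krt18 were listed at 0. Of the fibroblast markers 3 of 5 did (Col1a1, Col1a2 and Thy1), and Dcn was listed at 0. The summed level of the myoblast and skeletal muscle markers was 5342 in bufalin-treated cells against 5215 in control cells of the same table, and 5047 in periplocin-treated cells against 5052 in control cells. The sum of the cardiomyocyte markers was 4852 with bufalin against 5411 in control cells, and 5593 with periplocin against 5243 in control cells. Tnnt2 made up most of that sum, with log2 changes of -0.17 with bufalin and 0.11 with periplocin in the authors' deposited tables. Other markers of the list differed from it in sign: Tnni3 stood at 0.45 with bufalin, and Nkx2-5 at -0.26 with periplocin in the authors' deposited tables. The endothelial sum was 14.5 with bufalin against 26.3 in control cells, and 30.1 with periplocin against 25.6. The epithelial sum was 1143 with bufalin against 1057 in control cells, and 1110 with periplocin against 1024. The fibroblast sum was 762918 with bufalin against 716680 in control cells, and 681624 with periplocin against 694402. Col1a1 and Col1a2 made up most of the fibroblast sum. The part of these markers in the results was not tested.

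In the Hippo pathway, a chain of kinases ends in LATS1 and LATS2, which phosphorylate the co-activators YAP (gene Yap1) and TAZ (gene Wwtr1) and so keep them out of the nucleus. When the kinases are less active, YAP and TAZ enter the nucleus, bind TEAD transcription factors such as TEAD1 and raise target genes such as Ccn1, Ccn2 and Ankrd1. Angiomotin family proteins, among them AMOTL2, hold YAP at cell junctions and the actin cytoskeleton and promote its phosphorylation by LATS kinases, and Amotl2 has itself been described as a YAP target in mammalian cells. In heart muscle the pathway is known for its part in limiting growth of the organ.

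TEAD factors recognise the letters GGAATG, or CATTCC on the other strand. RefSeq's table for the GRCr8 assembly, which is a different build from that of the peak lists, held 7 of the 10 genes and 17 of 22 other YAP target genes. The motif was searched on both strands of the 250 bases before each start. The 3 stretches are examples, picked after matches and RNA values were seen: Amotl2, and the related matrix protein genes Ccn1 and Ccn2. Other genes with a match, Thbs1 among them, are named without their sequence. Capitals mark the matches, and positions count backwards from the RefSeq start. The Amotl2 start lies inside the annotated span of the gene, and the stretch there (GRCr8, chr8:112182538-112182567, plus strand, -88 to -59) was kept to 30 bases. The Ccn1 stretch (chr2:237225750-237225869, minus strand) and the Ccn2 stretch (chr1:22624675-22624794, minus strand) both run from -180 to -61.
Amotl2: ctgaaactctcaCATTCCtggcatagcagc
Ccn1: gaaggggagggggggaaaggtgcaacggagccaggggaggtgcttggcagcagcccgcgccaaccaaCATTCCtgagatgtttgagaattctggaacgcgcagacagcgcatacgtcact
Ccn2: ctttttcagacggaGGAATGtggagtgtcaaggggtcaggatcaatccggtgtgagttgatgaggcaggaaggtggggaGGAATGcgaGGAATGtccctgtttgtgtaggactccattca

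Amotl2 held 1 match, at -76 to -71, and Ccn1 held 1, at -113 to -108. Ccn2 held 3, which begin at -166, -101 and -92. Of the set, 3 of the 7 genes in the table held a match, the third being Yap1 at -116 to -111, and 5 of the 17 other target genes did, namely Ccn2, Ajuba, Ptpn14, Nuak2 and Thbs1. The motif was found in 12.1% of all 33469 sequences of this length there, and in 12.9% of the 27457 genes at any of their starts. Ccn2 was 1 of 27 genes with at least 3 matches. These are matches of letters, and nothing here measured binding.

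Amotl2, the junction scaffold, was the member whose RNA differed from control by the test, and it did so with periplocin. Its level was 42650 in periplocin-treated cells, against 31188 in control cells of the same table. In the authors' deposited table this was a log2 change of 0.45 ± 0.06 (SE), or 1.37-fold with a 95% Wald interval of 1.27 to 1.48. The adjusted p in the authors' deposited table was 3.39e-12 (Benjamini-Hochberg, from the Wald test of DESeq2), and by p-value Amotl2 ranked 2 of 10688 genes whose mean was 10 or more. Its level was 31620 in bufalin-treated cells, against 32189 in control cells of that table. The log2 change with bufalin in the authors' deposited table was -0.03 ± 0.06, or 0.982-fold (interval 0.905 to 1.07), with an adjusted p of 0.925. The interval thus spanned control with bufalin and lay above it with periplocin. In bulk RNA, more RNA per cell and more cells that hold it cannot be told apart.

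The kinases Lats1 and Lats2, which phosphorylate YAP and TAZ, did not pass the test with either compound, and each interval spanned control. Lats1 stood at 3474 in bufalin-treated cells against 3306 in control cells, and the authors' deposited table gave a log2 change of 0.07 ± 0.07. With periplocin it stood at 3111 against 3203 in control cells, a log2 change of -0.04 ± 0.06 in the authors' deposited table. The intervals of its fold ran from 0.961 to 1.15 with bufalin and from 0.897 to 1.05 with periplocin, and both span 1. Lats2 stood at 10777 with bufalin against 11198 in control cells, a log2 change of -0.06 ± 0.05 in the authors' deposited table. With periplocin its level was 11126 against 10850 in control cells, a log2 change of 0.04 ± 0.05 in the authors' deposited table.

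The co-activators and their DNA-binding partner had changes near 0. Yap1 stood at 4561 in bufalin-treated cells against 4663 in control cells, and at 4531 in periplocin-treated cells against 4517 in control cells. Its log2 changes in the authors' deposited tables were -0.03 ± 0.07 and 0.00 ± 0.06. Wwtr1, the gene of TAZ, stood at 1111 against 1123 in control cells with bufalin and at 1093 against 1088 with periplocin. Its log2 changes in the authors' deposited tables were -0.01 ± 0.11 and 0.01 ± 0.11, the widest errors among the regulators of the set, and the bufalin table gave it no adjusted p. Tead1, a TEAD transcription factor, stood at 5337 against 5498 in control cells with bufalin and at 5592 against 5327 with periplocin. Its log2 changes in the authors' deposited tables were -0.04 ± 0.07 and 0.07 ± 0.06. In the GRCr8 annotation the Tead1 span overlaps 2 genes without a proper symbol, LOC120099907 and LOC120099908, and how the authors' counting treated such overlaps and strand is not stated.

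The target genes Ccn1, a secreted matrix protein, and Ankrd1, an ankyrin repeat protein of the muscle nucleus and sarcomere, had values below control with bufalin and above it with periplocin, none of them past the test. Ccn1 stood at 37815 in bufalin-treated cells against 41063 in control cells, and at 42215 in periplocin-treated cells against 39788 in control cells. The log2 changes in the authors' deposited tables were -0.12 ± 0.19 and 0.09 ± 0.18. Its standard error was larger than those of 97.6% and 99.1% of the genes within 2-fold of its mean in the bufalin and periplocin tables of the authors' deposited tables, whose median errors were 0.06 and 0.04. Converted to a spread between libraries, this is a coefficient of variation of 16.3% and 15.4% for Ccn1, beside medians of 5.03% and 3.62% for those genes. The interval of its fold with periplocin ran from 0.830 to 1.36, so it holds changes of nearly the size seen for Amotl2.

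Ankrd1 stood at 93605 in bufalin-treated cells against 98478 in control cells, and the authors' deposited table gave a log2 change of -0.07 ± 0.08. With periplocin it stood at 103926 against 95416 in control cells, a log2 change of 0.12 ± 0.06 in the authors' deposited table, or 1.09-fold with an interval of 0.999 to 1.19. The adjusted p of Ankrd1 with periplocin in the authors' deposited table was 0.778.

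**Figure D1:**
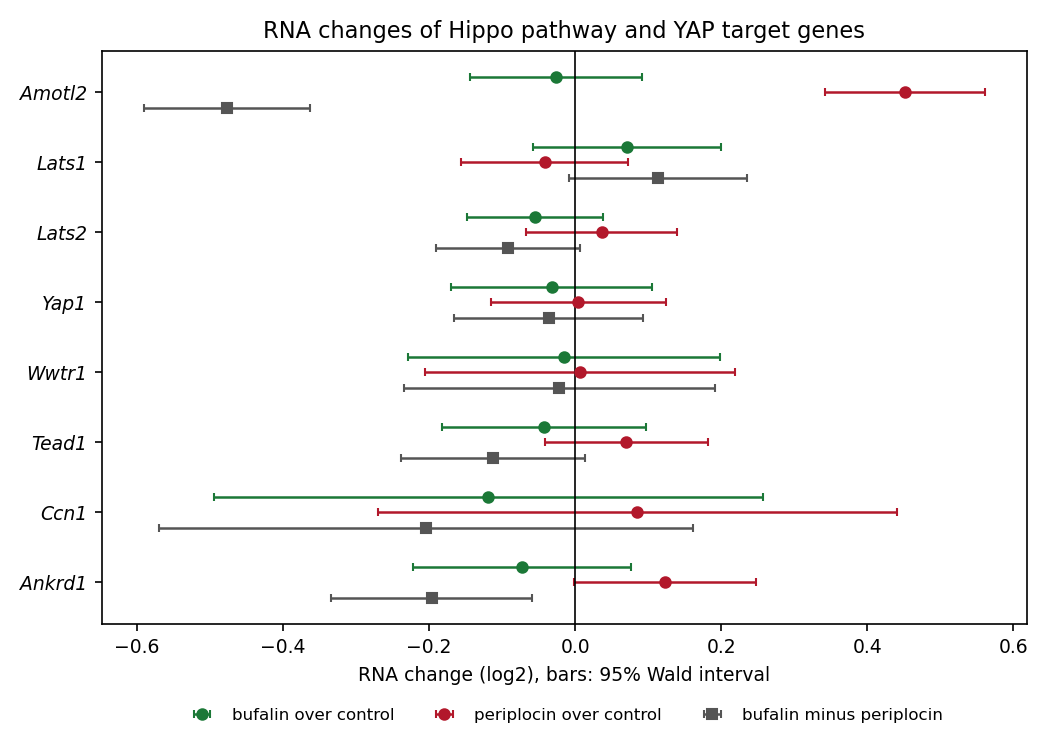
RNA changes (log2, x axis) of the 8 genes (y axis) for bufalin over control, periplocin over control and bufalin minus periplocin; points are the changes and bars 95% Wald intervals. For Amotl2 the periplocin interval, 1.27-fold to 1.48-fold, lies above control, and the bufalin interval spans 0; the bars of Ccn1 are the widest.

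A gene is called here when its adjusted p is under 0.05. Counted over the set, 0 of the 7 genes with an adjusted p passed 0.05 with bufalin by the authors' adjusted p in their deposited table, where 0.301% of all 3321 genes with an adjusted p did. None of the 8 had an unadjusted p under 0.05, beside 5% of all 12876 genes with a p-value. With periplocin 1 of 8, Amotl2, passed the adjusted p and was higher, beside 0.538% of 12445 genes, and it was also the 1 member with an unadjusted p under 0.05, beside 6.25% of 12906 genes. Over all genes 64 of the 67 called with periplocin were higher. Because RNA values were known when the set was drawn up, nothing is read from these shares. The median log2 change of the 8 genes was -0.04 with bufalin, beside 0.00 over all genes, and 0.05 with periplocin, beside 0.00 over all genes. With bufalin 1 gene (Lats1) lay above 0 and 7 below, and with periplocin 7 lay above 0 and 1 (Lats1) below. Over all genes 6382 of 12876 lay below 0 with bufalin and 6385 of 12906 with periplocin. Both comparisons use the same control libraries.

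**Figure D2:**
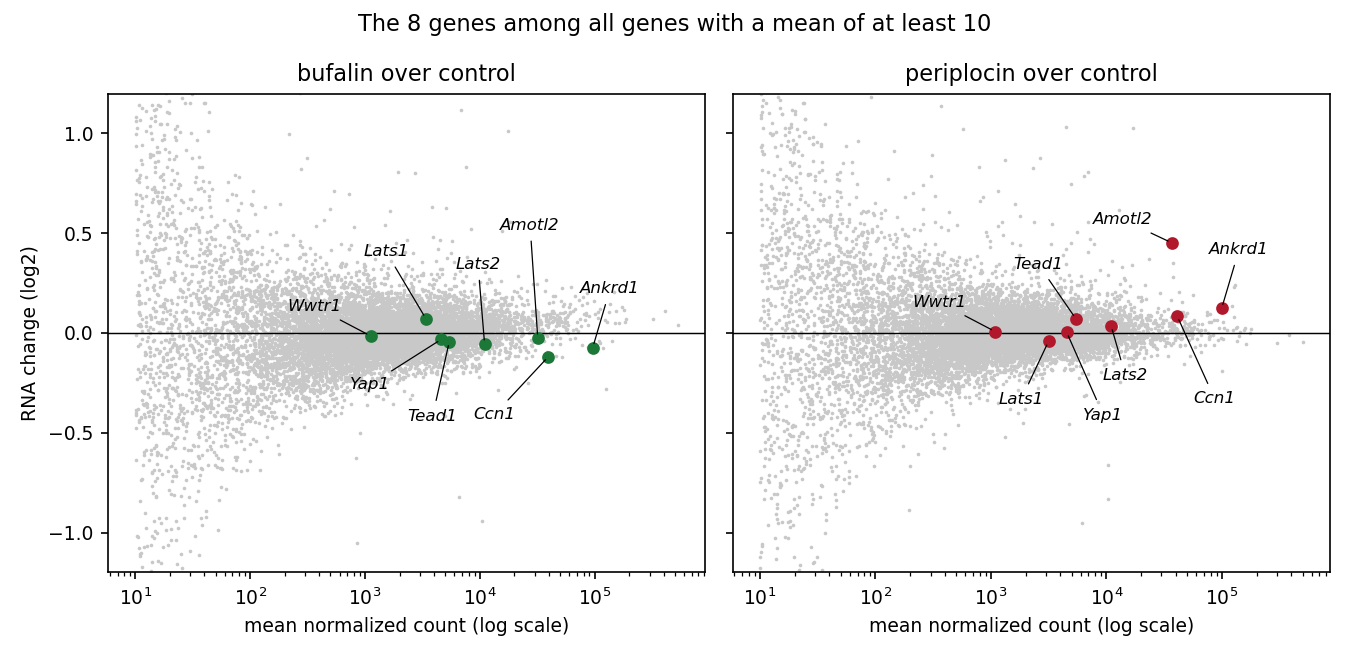
RNA change (log2, y axis) against mean normalized count (log scale, x axis) for every gene with a mean of at least 10 (grey) and the 8 genes (coloured) with bufalin (left) and periplocin (right). Amotl2 stands at 0.45 with periplocin, at or above the changes of 96.3% of 10688 genes with a p-value, and at -0.03 with bufalin. Beyond the plotted range of 1.2 in either direction lie 63 of 10679 genes with bufalin and 100 of 10695 with periplocin.

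The 2 compounds were set against each other through the shared controls, in an approximate Wald test with Benjamini-Hochberg adjustment over the 10602 genes whose mean reached 10 in both tables. Amotl2 RNA was lower with bufalin than with periplocin by a log2 difference of -0.48 ± 0.06 (SE; 95% interval -0.59 to -0.36; adjusted p 9.37e-13). Stated the other way, periplocin-treated cells held 1.39-fold the Amotl2 RNA of bufalin-treated cells. With a larger standard error, an upper limit that takes the controls as separate, the adjusted p of Amotl2 by this Wald test was 3.08e-05. It was the 1 gene of the 8 that was called, beside 0.396% of all genes tested, and nothing is read from that share.

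For the other 7 genes the difference between the compounds did not pass. Ankrd1 came nearest, at -0.20 ± 0.07 (interval -0.33 to -0.06), with a Wald adjusted p of 0.347. The interval of Lats1 ran from -0.01 to 0.24, that of Lats2 from -0.19 to 0.01 and that of Tead1 from -0.24 to 0.01, all on the log2 scale. Yap1 and Wwtr1 had differences of -0.04 ± 0.07 and -0.02 ± 0.11. The interval of Ccn1, -0.57 to 0.16, is wide enough to hold a difference as large as that of Amotl2. Of the 8 differences, 7 were below 0, beside 5228 of all 10602 genes. The differences were known when the set was drawn up, so nothing is read from that count.

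Other genes of the pathway were taken from 4 lists, also drawn up with earlier results known. The counts and shares given for these lists are therefore descriptions, and nothing is read from them. Map4k6 in the list of core kinases and adaptors is a second name of Mink1, and 17 of the 18 names listed were measured. The authors' deposited tables hold adjusted values for 10 of them in the bufalin comparison and for 17 in the periplocin comparison. Of these, 0 of 10 and 0 of 17 passed 0.05, where 0.301% and 0.538% of all genes with such a value did. The list's median log2 change was 0.04 with bufalin and 0.04 with periplocin, and 3 and 2 of its genes (17.6% and 11.8%) had an unadjusted p under 0.05, all above control, beside 5% and 6.25% of all genes. The lowest p with bufalin was that of Tnik, a MAP4K family kinase, whose level was 1380 in bufalin-treated cells against 1067 in control cells. In the authors' deposited table its change was 0.37 ± 0.10 (unadjusted p 0.000207 by the Wald test of DESeq2), on the log2 scale, and no adjusted p is given there; over the full 12876 genes it was 0.147 after adjustment by Benjamini-Hochberg. With periplocin Tnik stood at 0.14 ± 0.09 in the authors' deposited table. Next by p with bufalin were Stk3 (MST2), a kinase that activates LATS, at 0.16 ± 0.08, and the kinase Taok1, which acts on MST kinases, at 0.13 ± 0.06 in the authors' deposited table. With periplocin the lowest p-values belonged to the kinases Mink1 at 0.17 ± 0.06, Taok3 at 0.13 ± 0.06 and Map4k1 at -0.56 ± 0.29 (the authors' deposited table), with adjusted p-values of 0.309, 0.544 and 0.778 by the Wald test of DESeq2.

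In the list of upstream scaffolds and inhibitors, Kibra and Pals1 are second names of Wwc1 and Mpp5. Of its 23 names, 17 were measured, and the medians were -0.03 with bufalin and -0.02 with periplocin. Adjusted values of DESeq2 are given for 10 of them in the bufalin table and for 16 in the periplocin table. Of these, 0 of 10 and 0 of 16 passed 0.05, where 0.301% and 0.538% of all genes with such a value did. At an unadjusted p under 0.05 there were 2 above and 1 below control with bufalin (17.6% beside 5% of all genes), and 1 above control with periplocin (5.88% beside 6.25%). Frmd6, a scaffold related to merlin, was at -0.19 ± 0.06 with bufalin (adjusted p 0.161 by the Wald test of DESeq2) and, in the authors' deposited tables, at -0.04 ± 0.05 with periplocin. Ptpn14, a phosphatase that holds YAP in the cytoplasm and is also a YAP target, was at 0.15 ± 0.05 with bufalin (adjusted p 0.226) and, in the authors' deposited tables, at 0.07 ± 0.04 with periplocin. Ptpn14 is also in the list of other YAP target genes, and it is counted above control with bufalin in both lists. The adaptor Rassf1 had similar values with both compounds, 0.33 ± 0.16 with bufalin and 0.35 ± 0.15 with periplocin in the authors' deposited tables. Ajuba, a LIM protein that restrains LATS kinases and appears in 2 of the lists, was at -0.07 ± 0.13 and 0.15 ± 0.10 in the authors' deposited tables.

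The list named nuclear partners also took in 14-3-3 genes, casein kinase genes and Btrc, so the name covers only part of it. It held 19 genes, of which 15 were measured with bufalin and 14 with periplocin. An adjusted p was given for 5 of them with bufalin and 14 with periplocin. With either compound 0 had an unadjusted p under 0.05, beside 5% and 6.25% of all genes. The medians of the list were -0.00 with bufalin and -0.02 with periplocin. Tead2, a relative of Tead1, was at -0.17 ± 0.10 with bufalin and 0.06 ± 0.09 with periplocin in the authors' deposited tables. Runx2, a transcription factor that can bind YAP, was at 0.17 ± 0.11 with bufalin and -0.26 ± 0.16 with periplocin in the authors' deposited tables, and the difference between the compounds was 0.43 ± 0.14 (Wald adjusted p 0.182). Csnk1e, a casein kinase, and Ywhab, a 14-3-3 protein of the kind that holds phosphorylated YAP, were with periplocin at -0.10 ± 0.08 and -0.06 ± 0.05, by the authors' deposited table. The p53 relative Tp73 had a mean of 1.93 in the bufalin table and was listed at 0 in the periplocin table of the authors' deposited tables, too low for a fold.

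Among the other YAP target genes Ccn2 was lower with bufalin, and Thbs1 and Edn1 were higher with periplocin. Of the 22 listed 18 were measured, with a median log2 change of -0.08 with bufalin (14 of 18 below 0) and -0.01 with periplocin (10 of 18 below 0), beside 0.00 over all genes in both. At an unadjusted p under 0.05 there were 2 above and 4 below control with bufalin, 33.3% of the list beside 5% of all genes. With periplocin 2 lay above and 2 below control, 22.2% beside 6.25%, so both directions were present with each compound. Because the list was drawn up with earlier results known, nothing is read from these shares. With bufalin 1 of the 13 genes with an adjusted p was called, beside 0.301% of all genes. It was lower: Ccn2, whose product is a secreted matrix protein like that of Ccn1. Ccn2 stood at 112298 in bufalin-treated cells against 136314 in control cells, and at 134342 in periplocin-treated cells against 132062 in control cells. Its log2 changes in the authors' deposited tables were -0.28 ± 0.07 with bufalin (adjusted p 0.00870) and 0.02 ± 0.07 with periplocin.

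With periplocin 2 of the list were called, beside 0.538% of all genes, both higher: Thbs1, a matrix glycoprotein, and Edn1, the precursor of endothelin. Being higher was the general direction, since 64 of the 67 genes called over all genes with periplocin were higher. Thbs1 stood at 136770 in periplocin-treated cells against 116556 in control cells, a log2 change of 0.23 ± 0.05 in the authors' deposited table (adjusted p 0.000264). With bufalin Thbs1 stood at 114008 against 120298 in control cells, a log2 change of -0.08 ± 0.07 in the authors' deposited table. Edn1 stood at 1042 in periplocin-treated cells against 649 in control cells, a log2 change of 0.68 ± 0.13 in the authors' deposited table (adjusted p 8.17e-05). With bufalin Edn1 stood at 557 against 670 in control cells, a log2 change of -0.27 ± 0.17 in the authors' deposited table. Ccn2, Thbs1 and Edn1 were each lower with bufalin than with periplocin, by -0.30 ± 0.07, -0.31 ± 0.06 and -0.95 ± 0.15 on the log2 scale. All 3 passed the adjusted Wald test, beside 0.396% of all genes, and over all genes 31 of the 42 called were lower with bufalin. With the upper limit of the standard error Ccn2 and Thbs1 no longer passed (adjusted p 0.839 and 0.216), and Edn1 did (0.0120). Tgfb2, a growth factor, was at -0.16 ± 0.05 with bufalin (adjusted p 0.134), and Ccdc80, a matrix protein, at -0.19 ± 0.05 with periplocin (adjusted p 0.0611) in the authors' deposited tables.

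**Figure D3:**
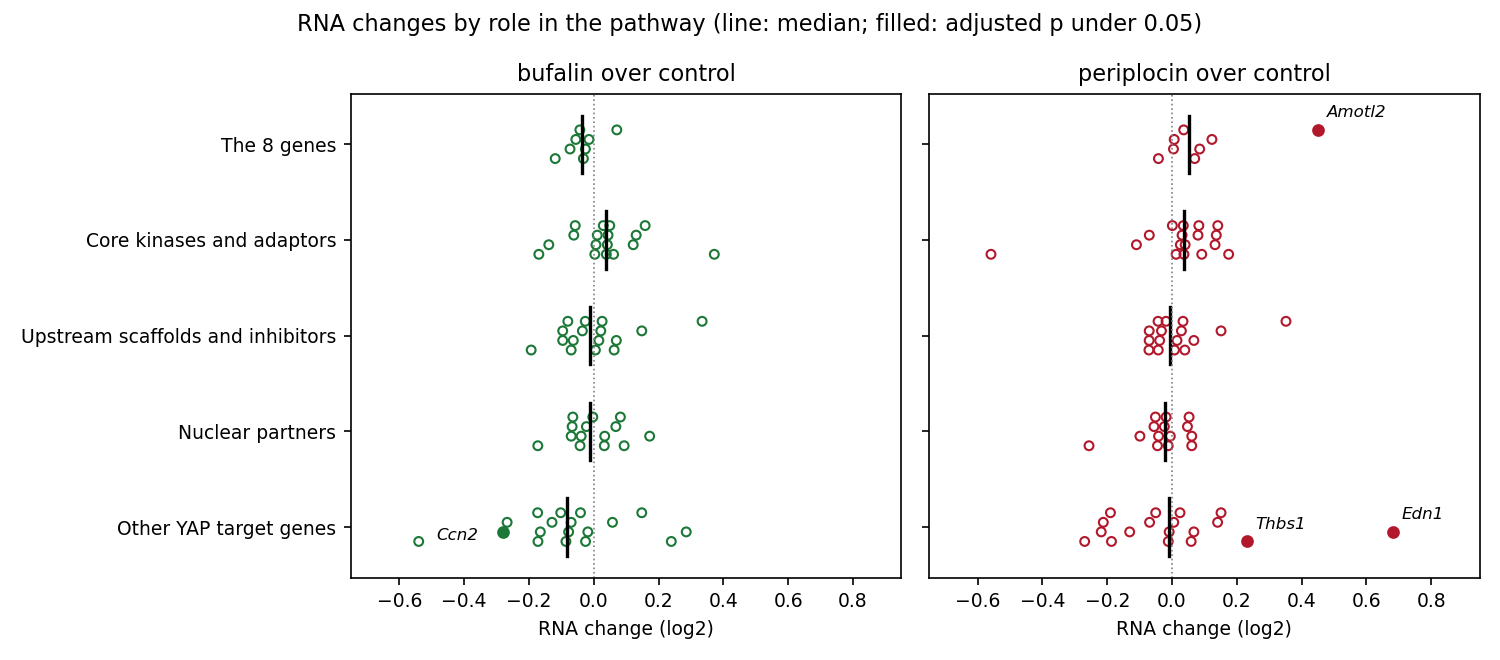
RNA change (log2, x axis) with bufalin (left) and periplocin (right) of each gene with a mean of at least 10 in the set and 4 pathway lists (y axis); circles are genes, filled where the adjusted p was under 0.05, and black lines are medians of the genes drawn. Ccn2 is filled with bufalin at -0.28, and Amotl2, Thbs1 and Edn1 are filled with periplocin at 0.45, 0.23 and 0.68.

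The peak lists give regions of the transcripts enriched in the m6A pull-down, 9866 in the bufalin list and 9170 in the periplocin list, on the rn6 build. Fold enrichment, p and the change of each peak are the authors' values per peak. The enrichment was read as IP over input and the change as treated over control, neither of which the files state. The genes of the set held 22 peaks in the bufalin list and 21 in the periplocin list, and Wwtr1 held none in either. Among genes whose mean reached 1000, 67.6% and 65.6% held a peak in the 2 lists.

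Lats1 held 6 and 5 peaks and Lats2 held 6 and 6, where the median of genes with a peak was 1. Amotl2 held 3 and 3, Tead1 held 3 and 2, Yap1 held 1 and 2, Ccn1 held 2 and 2, and Ankrd1 held 1 and 1. Of the 22 peaks in the bufalin list 20 shared at least 1 base with a peak of the same gene in the periplocin list, and 14 of the 20 pairs had the same bounds. The median enrichment of these peaks was 2.08 in the bufalin list and 1.96 in the periplocin list, beside 1.82 and 1.81 over all peaks. The most enriched peak of the set was that of Ankrd1 (chr1:254733951-254734970, minus strand, 2 blocks that cover 100 bases), at 4.33-fold and 4.09-fold, above 99.5% and 99.6% of all peaks. The peaks of Ccn1 were among the weakest, between 1.07-fold and 1.45-fold in the 2 lists.

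No peak of the set passed the authors' FDR of the change, which was 1 for each of them. In the authors' deposited peak lists 0.0304% of all peaks with bufalin (3 of 9866) and 0.0436% with periplocin (4 of 9170) passed an FDR of 0.05. At an unadjusted p under 0.05 the count was 0 of 22 with bufalin, beside 3.04% of all peaks, and 2 of 21 with periplocin, beside 3.37%. The 2 were a Lats2 peak (chr15:37950925-37952644, minus strand) with a log2 change of 0.19 and p of 0.0490, and a Tead1 peak (chr1:177702357-177706814, plus strand) with a log2 change of -0.23 and p of 0.0407, both from the authors' deposited peak list. Which values of these lists were known when the set was drawn up is not recorded, so these shares too are descriptions.

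None of the 3 peaks of Amotl2 passed the test of the change in either list. The first (chr8:111213095-111213344, plus strand) was enriched 2.43-fold in both lists, and its log2 change was -0.00 with bufalin and 0.09 with periplocin in the authors' deposited peak lists. The second (chr8:111224616-111225015) was enriched 1.98-fold and 1.96-fold, with log2 changes of 0.04 and 0.01 in the authors' deposited peak lists. The third began at 111225414 in the bufalin list and at 111225364 in the periplocin list, and had log2 changes of 0.31 and -0.03 in the authors' deposited peak lists, with p-values of 0.278 and 0.914. While Amotl2 RNA was 1.37-fold that of control with periplocin, none of its 3 peaks had a p of the change under 0.05.

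The Lats1 peaks lay below 0 in 5 of 6 cases with bufalin and in 5 of 5 with periplocin, with log2 changes between -0.44 and 0.62 and between -0.57 and -0.04 in the authors' deposited peak lists. Neighbouring peaks of a transcript share their RNA and libraries, so they are not independent, and none of them passed the test. The Lats2 peaks lay below 0 in 1 of 6 cases with bufalin and in 4 of 6 with periplocin. Ankrd1 had log2 changes of -0.06 and -0.11, and the Yap1 peak present in both lists (chr8:6135591-6135738, minus strand) 0.16 and 0.02 in the authors' deposited peak lists. Over the set, 10 of 22 peaks lay below 0 with bufalin and 15 of 21 with periplocin, beside 54.8% and 52.3% of all peaks, and the median log2 changes were 0.02 and -0.04, beside -0.02 and -0.01 over all peaks. With the most enriched peak per gene both medians were -0.00, and over peaks enriched at least 2-fold the bufalin median was -0.03, so its sign depends on the peaks taken.

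**Figure D4:**
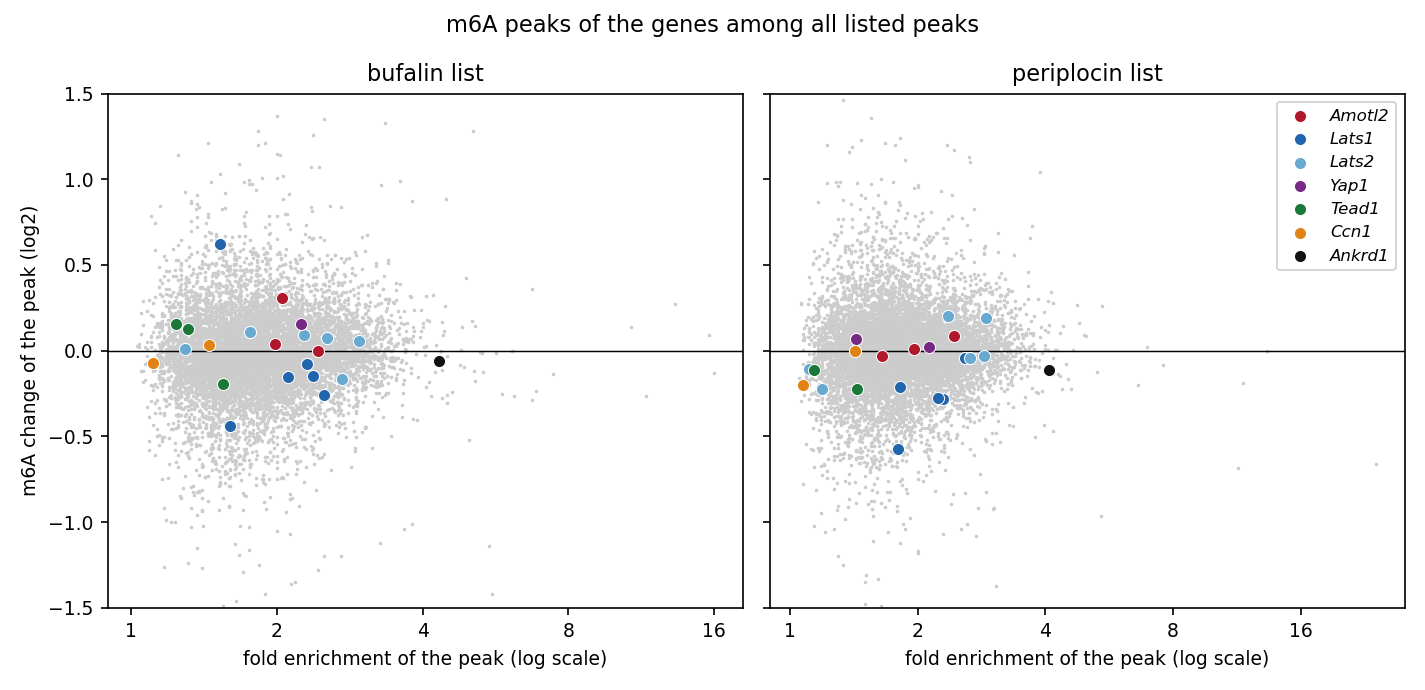
Change of each m6A peak (log2, y axis) against its fold enrichment (log scale, x axis) in the bufalin list (left) and the periplocin list (right); grey points are all peaks and coloured points the peaks of 7 genes. The Ankrd1 peak is the most enriched of them at 4.33-fold and 4.09-fold, no coloured peak passed the FDR of the change, and 24 of 9866 and 32 of 9170 peaks lie beyond the plotted range of 1.5 in either direction.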

How the data were processed

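The 10 genes and the pathway lists were chosen with earlier results of these data known. Per the submitters' processing notes HISAT2, StringTie, DESeq and rn6 were used; their versions, the peak caller and the libraries (input or IP) behind the RNA tables were not given in the sources used here. Libraries came from a stranded kit with molecular identifiers, per the labels' protocols. In the deposited tables the signal is the mean of size-factor-normalized counts, the log2 values are fold changes and standard errors, the score is the Wald statistic, and p-values are raw and adjusted, per the file headers. In the deposited peak lists fold enrichment is a ratio, and p and FDR are given as log10, per the file headers. In the periplocin list 1 peak, on no member, has a log10 p of the change of -434, which looks like a floor.

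Group means were derived from mean and fold change with equal group sizes. Control means coincided within 1% between the tables in all 10602 genes compared when both changes were taken as treatment over control, and in 1165 with the periplocin change turned round. The sign of the periplocin Wald statistic is opposite to its change in all 12913 genes, so changes were used. The bufalin table gives adjusted p-values only above a mean of 2259. The median SE was 0.11 in both tables. Calls used an adjusted p or FDR under 0.05. The compounds were compared by a Wald test on the difference of changes, with the spread of the treated groups worked out from the deposited standard errors. It was run on simulated counts whose standard errors were made from the known spread. Errors in estimating the spread were thus not tested there. Named were all members and their peaks, list genes called in any comparison, and per list the 3 lowest p-values per compound. Alternatives covered thresholds, adjustment, mean filters, standard error and peak choice. Scripts ran in Python 3.11.15 with scipy 1.17.1, pandas 2.3.3, matplotlib 3.10.9 and numpy 2.4.6. The result of 1 other list of cell type markers is not reported here.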

Additional observations from a re-analysis of the deposited data

Results flagged for a closer look

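The response differed between bufalin and periplocin by the Wald test of the difference for Amotl2 (-0.48 on the log2 scale, bufalin minus periplocin), Ccn2 (-0.30), Thbs1 (-0.31) and Edn1 (-0.95). Bufalin-treated cells had the lower level for all 4 genes, and over all genes 31 of the 42 called were lower with bufalin. The 4 genes come from lists drawn up with earlier results known, so nothing is read from their shared direction. With the upper limit of the standard error Amotl2 and Edn1 kept their calls (adjusted p 3.08e-05 and 0.0120), and Ccn2 and Thbs1 did not (0.839 and 0.216). Doses and times of the compounds are not in the labels, so compound and dose cannot be told apart.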

How the results depend on the processing

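The counts of called members and member peaks were the same under every alternative threshold, adjustment, mean filter, standard error and peak choice tried: 0 and 1 genes for bufalin and periplocin, 1 gene between them, and 0 peaks. Amotl2 with periplocin kept its call, with adjusted p-values from 2.91e-12 to 3.51e-12 by Benjamini-Hochberg. The median change of the member peaks with bufalin was 0.02 over all peaks and -0.03 over peaks enriched at least 2-fold; with periplocin it was -0.04 over all peaks and -0.00 with 1 peak per gene. Over all genes, calls with bufalin numbered 10, and 21 at a threshold of 0.1; with periplocin 67, with 101 at 0.1 and 44 at 0.01; between the compounds 42, with 25 at 0.01 and 8 with the upper limit of the standard error. That limit ended the calls of Ccn2 (adjusted p 0.839) and Thbs1 (adjusted p 0.216), since it ignores the shared controls by construction. No paired analysis was possible because the deposited files hold comparisons and no value per library; for the same reason no replicate could be left out, and depth, library outliers and batches are not analysed here.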
